A study of Mus musculus with 2 samples.

Results

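The genes described here code for the machinery of protein synthesis: the translation initiation, elongation and termination factors, the poly(A)-binding proteins, and the aminoacyl-tRNA synthetases of the cytosol and of mitochondria. They were chosen by a rule on gene symbols that uses no measured value, though earlier results of these data were known, and the rule took 114 genes of the 34295 in the deposited expression table. By their descriptions 3 of them, Coprs, Csprs and Ptprs, are not translation genes and were taken only for the letters at the end of their names. The other 111 are 74 genes of translation factors and their regulators, 20 genes of cytosolic synthetases and 17 genes of mitochondrial synthetases. None of them had more than 1 row in the table.

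Expression was compared between 2 primary cultures of wild type C57BL/6J mice, with 1 RNA-seq library of each, and the series lists growth factors and their receptors as its subject. The fibroblasts were grown from E13.5 to E14.4 embryos after the head and the red tissue had been taken away, sorted to be negative for CD45, CD11b and F4/80, and used at passage 4 to 7, with 100000 cells in complete DMEM. The macrophages were grown for 6 days from whole bone marrow, in an RPMI medium with 30% L929-conditioned medium, a source of macrophage colony-stimulating factor, and were plated at 750000 cells. Both media held 10% serum, neither culture had a labelled treatment, and both were lysed after a night in culture. The labels used here do not give the sex of the animals, the age of the marrow donors or how many embryos or mice were pooled.

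With 1 library per cell type no difference below has a replicate check, and no test could be run. The values are transcripts per 1000000 (TPM), which sum to 999545 in the fibroblast library and to 999609 in the macrophage library and do not keep the read depth, so no counting error can be given. Fold changes are log2 ratios of TPM plus 1, fibroblast over macrophage. A gene was counted as detected when either library gave it 1 TPM or more, and size rules of 4-fold and 2-fold also asked for 5 TPM or more in the higher library. Among 8363 genes with at least 5 TPM in both libraries the median log2 ratio of plain TPM was 0.18, so a log2 ratio near 0.18 is the level of a typical gene, and a smaller one changes sign when the libraries are scaled on these genes.

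The labels were checked on marker lists. All 12 fibroblast markers were over 4-fold higher in fibroblasts, with a summed level of 9389 TPM in fibroblasts and 15.6 TPM in macrophages, and all 12 macrophage markers were over 4-fold higher in macrophages, with sums of 41.9 TPM in fibroblasts and 22450.5 TPM in macrophages. Of 6 neutrophil markers 3 passed the 4-fold rule in macrophages and none in fibroblasts. The 6 summed to 1.93 TPM in fibroblasts and 435 TPM in macrophages. S100a9 had 0 TPM in fibroblasts and 268 TPM in macrophages, and in the same order S100a8 had 1.85 and 157 and Camp 0 and 5.17. Mpo and Elane also lay toward macrophages, with 2.83 and 2.34 TPM there. Ly6g, which defines mature neutrophils, was at 0 in both. Of 6 skeletal muscle and 6 neuron markers, 2 each passed the 4-fold rule in fibroblasts. For muscle, Acta1 had 70.8 TPM in fibroblasts and 0.721 TPM in macrophages, and Des 6.11 and 0 in the same order. For neurons, Map2 had 35.1 TPM in fibroblasts and 0.169 TPM in macrophages, and Tubb3 20.8 and 0.163 in the same order. The neuron marker Syp lay the other way at a low level, with 0.145 TPM in fibroblasts and 1.77 TPM in macrophages. The muscle markers summed to 77.0 TPM in fibroblasts and 0.995 TPM in macrophages and the neuron markers to 56.1 TPM in fibroblasts and 2.10 TPM in macrophages, with Myod1, Myog, Elavl3, Rbfox3 and Snap25 at 0 in both libraries. None of 6 erythroid, 6 germ cell, 6 endothelial or 6 epithelial markers passed the 4-fold rule in either direction. The part of these other cells in the values below was not tested, and in bulk RNA fewer cells of a type and less RNA per cell cannot be told apart.

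As background, translation begins when eIF2 brings the initiator tRNA to the small ribosomal subunit. The factor eIF3 binds that subunit, and the cap-binding complex eIF4F recruits the mRNA. The elongation factors then deliver aminoacyl-tRNAs and move the ribosome along, and the release factors end the chain. Synthetases charge each tRNA with its amino acid, mostly from separate nuclear genes for the cytosol and for mitochondria. Cells slow initiation through kinases that phosphorylate eIF2, which favours translation of the transcription factor ATF4, and through binding proteins that hold eIF4E. Genes of several cytosolic synthetases are known targets of ATF4, which binds an element with the core TGATGNAA together with C/EBP partners.

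The element was looked for in the promoters of all members, as were the other motifs given below. It was chosen with the direction of the cytosolic synthetases, described further on, already known. Promoter windows from 250 bases before to 50 bases after the start were matched for 81 of the 114 genes in a RefSeq table of the build GRCm38.p6. The 81 genes had 98 windows, since some have several RefSeq starts, and a gene was counted when any of its windows held a motif. TGATGNAA, read on both strands, occurred in 7 of the 81, which is 8.64%, against 4.51% of all 27025 genes in the table and 2.75% of 8627 genes with at least 5 TPM in either library. It occurred in 5 of 13 cytosolic synthetase genes, which is 38.5%, in none of 14 mitochondrial ones and in 2 of 53 translation factor genes. The capitals in the sequences below mark the element, written as TTGCATCA or TTTCATCA where it lies on the opposite strand. Each is the gene's own strand, 5′ to 3′, with up to 30 bases on each side. Aars (chr8:111033700-111033767, plus strand) has it 112 bases before the RefSeq start and again 9 bases after it (chr8:111033821-111033871), Gars (chr6:55037941-55038008, plus strand) 30 bases before, and Tars (chr15:11399636-11399703, minus strand) 15 bases before. In Iars (chr13:49682107-49682159, plus strand) and Yars (chr4:129189876-129189932, plus strand) it begins 7 and 3 bases after the start. The factor genes that hold it are Eif2s3x (chrX:94212710-94212777, minus strand), 96 bases before the start, and Eef2k (chr7:120851075-120851142, plus strand), where it lies at 1 of 3 RefSeq starts, an alternative start inside the gene, and not in the window at the start of the gene.
Aars, before the start: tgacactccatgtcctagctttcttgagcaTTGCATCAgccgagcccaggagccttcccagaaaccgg
Aars, after the start: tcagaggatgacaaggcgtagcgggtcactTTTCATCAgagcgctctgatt
Gars: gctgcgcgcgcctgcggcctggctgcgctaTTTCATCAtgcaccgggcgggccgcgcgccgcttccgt
Tars: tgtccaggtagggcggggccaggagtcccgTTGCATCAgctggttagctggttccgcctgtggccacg
Iars: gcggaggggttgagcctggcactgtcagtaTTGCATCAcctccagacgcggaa
Yars: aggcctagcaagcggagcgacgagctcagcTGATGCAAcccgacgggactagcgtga
Eef2k: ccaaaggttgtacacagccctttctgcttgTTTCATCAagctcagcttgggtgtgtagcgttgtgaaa
Eif2s3x: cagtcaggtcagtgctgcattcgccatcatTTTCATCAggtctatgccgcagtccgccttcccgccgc
A match of these letters is a description and neither a binding site nor a cause, and a window without them says nothing about the factor.

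The members were expressed in both cells in nearly the same order of levels. Of the 114, 109 were detected, and 102 stood at 5 TPM or more in both libraries. Those under 1 TPM in both were Eef1a2, Eif4e1b, Pabpc2, Pabpc5 and Pabpc6. The summed level of the 114 genes was 28050.1 TPM in fibroblasts, 2.81% of the library, and 24890.4 TPM in macrophages, 2.49% of it. Without the 3 genes matched by letters and without Lars2, whose value is doubtful, the sums were 2.54% in fibroblasts and 1.84% in macrophages. Across the 106 detected translation genes the order of levels was nearly kept between the libraries. The Spearman rho was 0.96 across genes, which are not independent replicates. Across 11191 genes with at least 5 TPM in either library rho was 0.55. These include genes under 5 TPM in the other library, which few members are, so the 2 values come from unlike sets. No rho was computed for genes with at least 5 TPM in both libraries.

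Most members differed by less than 2-fold. At 4-fold, 1 of 105 members with at least 5 TPM in either library was higher in fibroblasts, 0.952%, where 14.3% of the 11191 genes passed the same rule, and none was higher in macrophages, where 8.77% of all genes passed. At 2-fold, 10 of 105 were higher in fibroblasts, 9.52% against 23.6% of all genes, and 3 were higher in macrophages, 2.86% against 15.2% of all genes. The other 92 lay within 2-fold. These background shares include genes under 5 TPM in the lower library, as 3 of the 105 members were. Among genes with at least 5 TPM in both libraries, 10 of 102 members, 9.80%, passed 2-fold toward fibroblasts against 12.2% of 8363 genes, a share near the background, and 3, 2.94%, passed it toward macrophages against 9.97%. On these genes the 4-fold rule held for 1 member toward fibroblasts against 2.67% of all genes and for none toward macrophages against 3.07%. The log2 ratios of these members had an SD across genes of 0.58, against 1.05 over the 8363 genes. The 2 sets are unlike in level. Median levels were 80.9 TPM in fibroblasts and 57.0 TPM in macrophages for these members, and 32.5 and 29.4 TPM for the 8363 genes.

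The small differences lay mostly on one side. The median log2 ratio of the 109 detected members was 0.39, with quartiles of 0.14 and 0.73, against 0.28 for all detected genes. It was above 0 in 89 of the 109 members, 81.7%, against 61.8% of all detected genes. Scaling the libraries on the 8363 shared genes put the medians at 0.22 for the members and 0.11 for all detected genes, and left 80 of 109 members, 73.4%, above 0, against 54.7% of all genes. These shares describe 1 pair of libraries and single out nothing about the members.

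**Figure D1:**
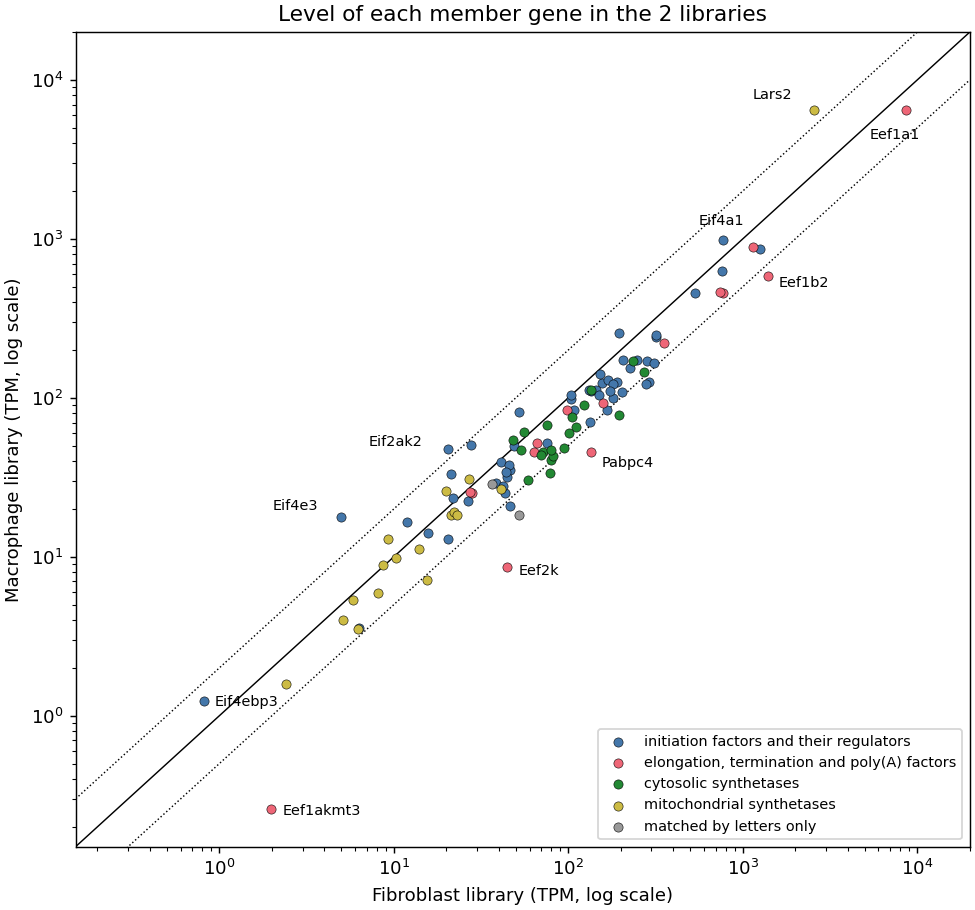
Level of the detected genes, TPM in the fibroblast library on the horizontal axis and in the macrophage library on the vertical axis, both on a log scale, coloured by kind of gene, with the line of equal levels solid and 2-fold either way dotted. Most genes lie between the dotted lines and below the solid one, Eef2k, Pabpc4 and Eef1b2 lie below the band, Lars2, Eif4e3 and Eif2ak2 lie above it, and Csprs, listed at 0 in fibroblasts, is not drawn.

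Among the factors that scan for the start codon, Eif1, which guards start codon choice, had 759 TPM in fibroblasts and 626 TPM in macrophages (log2 ratio 0.28). Its close paralog Eif1b had 52.0 TPM in fibroblasts and 81.0 TPM in macrophages (-0.63). The paralogs therefore leaned in opposite directions, and Eif1 stood 14.6 times above Eif1b in fibroblasts and 7.73 times above it in macrophages. Eif1a had 167 TPM in fibroblasts and 83.5 TPM in macrophages, for a log2 ratio of 0.99 that fell just short of the 2-fold rule. Its X-linked copy Eif1ax had 103 TPM in fibroblasts and 97.8 TPM in macrophages, for a log2 ratio of 0.08 that becomes -0.10 under the scaling. Eif1a was the higher of that pair in fibroblasts and Eif1ax the higher in macrophages. Eif5, which makes eIF2 hydrolyse its GTP at the start codon, had 249 TPM in fibroblasts and 172 TPM in macrophages (0.53).

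The subunits of eIF2 differed from each other. Eif2s1, the subunit that the stress kinases phosphorylate, had 104 TPM in fibroblasts and 105 TPM in macrophages (-0.01). Eif2s2 had 181 TPM in fibroblasts and 101 TPM in macrophages (0.84). The GTP-binding subunit has copies on both sex chromosomes. Eif2s3x had 133 TPM in fibroblasts and 70.1 TPM in macrophages (0.92), and Eif2s3y had 27.5 TPM in fibroblasts and 50.9 TPM in macrophages (-0.86, and -1.04 under the scaling, past 2-fold). The Y copy made up 17.1% of the sum of both copies in fibroblasts and 42.0% in macrophages. Eif2s3x shares 35.3% of its 31-base words, the stretches of 31 bases in its annotated transcripts, with other genes and Eif2s3y 0.354%, and the gene model that shares most with Eif2s3x, Gm2223, had 4.27 TPM in fibroblasts and 4.77 TPM in macrophages. The sum of the X and Y copies was 161 TPM in fibroblasts and 121 TPM in macrophages, for a log2 ratio of 0.41. The sex of the animals is not labelled. RNA of the Y-linked Eif2s3y in both libraries shows that each held some male cells, while their share is not known. A difference in the share of male cells and a difference between the cell types cannot be told apart here.

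The exchange factor eIF2B recharges eIF2 with GTP and has 5 subunits of different genes. Eif2b3, which forms the catalytic part with Eif2b5, had 46.6 TPM in fibroblasts and 20.8 TPM in macrophages, for a log2 ratio of 1.13 that comes to 0.95 under the scaling. Eif2b1 followed with 0.76, Eif2b5 with 0.47 and Eif2b4 with 0.24, while Eif2b2 had 49.1 TPM in fibroblasts and 50.2 TPM in macrophages (-0.03). The subunits of 1 complex thus spanned more than 1 log2 unit between these libraries.

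The kinases of eIF2 were the group of factors with the lowest median, -0.26. Toward macrophages lay 3 of 4, where 61.8% of all detected genes lay toward fibroblasts. Eif2ak2 (chr17:78852564-78882573), which codes for the double-stranded RNA sensor PKR and is known to be induced by interferon, had 20.4 TPM in fibroblasts and 47.4 TPM in macrophages (-1.18). Eif2ak4, the amino acid sensor GCN2, had 11.9 TPM in fibroblasts and 16.6 TPM in macrophages (-0.45). Eif2ak1, the heme-regulated kinase HRI, was near equal, with 22 TPM in fibroblasts and 23.3 TPM in macrophages (-0.08). Eif2ak3, the endoplasmic reticulum stress sensor PERK, was the exception with 20.4 TPM in fibroblasts and 13.0 TPM in macrophages (0.61). In fibroblasts HRI, PKR and PERK stood at about 1 level, with PKR at 27.4% of the sum of the 4 kinases. In macrophages PKR was the highest, at 47.3% of the sum, and PERK the lowest.

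The promoter window of Eif2ak2 holds a match to the core that interferon-activated factors are known to bind, GAAA then any 2 bases then GAAA, in capitals, beginning 18 bases after the RefSeq start (chr17:78882543-78882584, minus strand, GRCm38.p6).
Eif2ak2: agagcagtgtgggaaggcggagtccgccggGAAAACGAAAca
The same letters, read on both strands, stood in 5 of the 81 matched genes, 6.17%, and in 3.99% of all genes in the table. The other 4 members with them were Eif2s1, Eif2s3x, Eif3a and Qars, whose log2 ratios ran from -0.01 to 0.92.

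All 14 genes of eIF3, the largest initiation factor, had a log2 ratio above 0, from 0.10 to 1.19 with a median of 0.47. Under the scaling 12 of 14 kept that sign, Eif3b and Eif3j1 going to -0.08 and -0.04. Of all detected genes 61.8% lay above 0 as deposited and 54.7% under the scaling. Their levels ran from 15.6 to 321 TPM in fibroblasts and from 14.1 to 249 TPM in macrophages. The highest by mean level were Eif3h with 321 TPM in fibroblasts and 241 TPM in macrophages (0.41), Eif3k with 319 TPM in fibroblasts and 249 TPM in macrophages (0.35), and Eif3i with 285 TPM in fibroblasts and 172 TPM in macrophages (0.73). Eif3e stood apart from its partners with 289 TPM in fibroblasts and 126 TPM in macrophages (1.19). Against the scaffold subunit Eif3b, Eif3e was 1.90 times as high in fibroblasts and 0.888 times as high in macrophages. The paralogs Eif3j1 and Eif3j2 share most of their sequence, so their separate values are uncertain, and their sum was 58.1 TPM in fibroblasts and 41.9 TPM in macrophages (0.46).

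Within eIF4F, which joins the cap-binding protein, a scaffold and an RNA helicase, the subunits differed in direction. The helicase genes Eif4a1 and Eif4a2 code for closely related proteins. Eif4a1 had 776 TPM in fibroblasts and 989 TPM in macrophages (-0.35). Eif4a2 (chr16:23107444-23114136) had 279.6 TPM in fibroblasts and 122 TPM in macrophages (1.19). Eif4a1 was 2.78 times as high as Eif4a2 in fibroblasts and 8.12 times as high in macrophages, ratios taken inside each library that do not move with its scaling. Eif4a1 shares 25.6% of its 31-base words with the pseudogene Eif4a-ps4, which was given 270.5 TPM in fibroblasts and 438 TPM in macrophages, and the sum of gene and pseudogene had a log2 ratio of -0.45. Their relative Eif4a3, a core of the exon junction complex, had 135 TPM in fibroblasts and 109.7 TPM in macrophages (0.29).

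The cap-binding protein and its scaffold also lay on opposite sides. Eif4e had 195 TPM in fibroblasts and 255 TPM in macrophages (-0.39), and the scaffold Eif4g1 had 312 TPM in fibroblasts and 165 TPM in macrophages (0.92). Eif4e stood at 0.625 of the level of Eif4g1 in fibroblasts and at 1.55 times its level in macrophages. Eif4g2, a relative of the scaffold that lacks the site for eIF4E, had 530.3 TPM in fibroblasts and 458 TPM in macrophages (0.21), and Eif4g3 had 44.2 TPM in fibroblasts and 34.1 TPM in macrophages (0.36). Among the other cap-binding proteins, Eif4e2, known for cap binding without recruitment of eIF4G, had 150.3 TPM in fibroblasts and 104 TPM in macrophages (0.53). Eif4e3 (chr6:99625135-99666771) had 5.01 TPM in fibroblasts and 17.8 TPM in macrophages (-1.64), the member with the lowest log2 ratio at 5 TPM or more. It stayed a minor form in both, with Eif4e 38.9 times as high in fibroblasts and 14.35 times as high in macrophages.

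The binding proteins that hold eIF4E away from the scaffold were led by Eif4ebp1, with 204 TPM in fibroblasts and 108 TPM in macrophages (0.90). Eif4ebp2 had 41.1 TPM in fibroblasts and 39.4 TPM in macrophages, for a log2 ratio of 0.06 that becomes -0.12 under the scaling. Eif4ebp3 had 0.817 TPM in fibroblasts and 1.24 TPM in macrophages. Eif4enif1, which carries eIF4E into the nucleus, had 45.5 TPM in fibroblasts and 37.6 TPM in macrophages (0.27). The RNA of the 3 binding proteins together was 1.26 times that of Eif4e in fibroblasts and 0.584 times that of Eif4e in macrophages. RNA levels say nothing of the phosphorylation by mTOR that sets the binding of these proteins.

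The genes of the late steps all had log2 ratios above 0, as did 61.8% of all detected genes. Eif5a, which helps the ribosome through difficult peptide bonds, had 1258 TPM in fibroblasts and 870.3 TPM in macrophages (0.53). Its paralog Eif5a2 had 6.29 TPM in fibroblasts and 3.55 TPM in macrophages (0.68), so that Eif5a was more than 200 times as high as Eif5a2 in each cell. Eif5b, which joins the ribosomal subunits, had 75.4 TPM in fibroblasts and 51.9 TPM in macrophages (0.53). Eif6, which keeps free large subunits apart from small ones, had 131 TPM in fibroblasts and 113 TPM in macrophages (0.22).

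**Figure D2:**
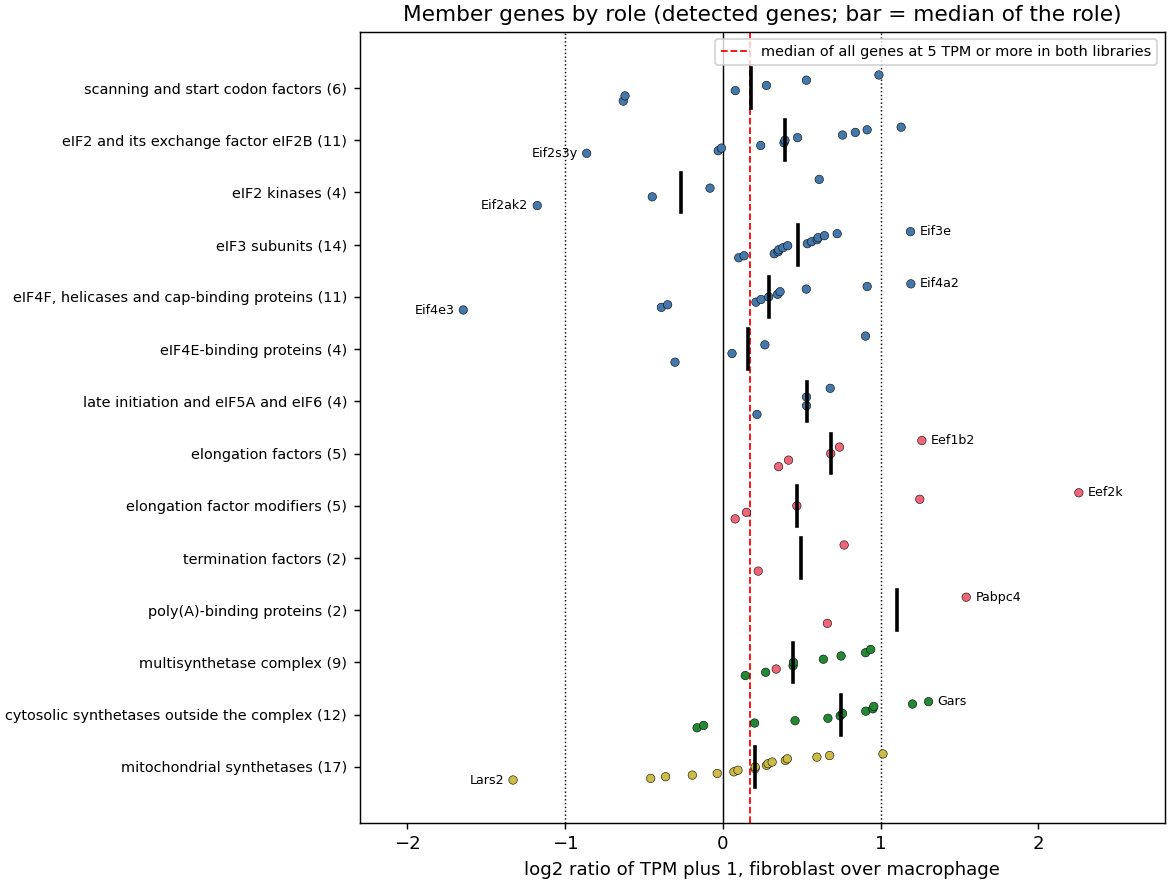
Log2 ratio of TPM plus 1, fibroblast over macrophage, of each detected gene by role, with the number of genes in brackets, values as deposited, a black bar at the median of each role, a red dashed line at the median of all genes with at least 5 TPM in both libraries and dotted lines at 2-fold. The eIF2 kinases have the one median below 0, the poly(A)-binding and elongation genes and the cytosolic synthetases outside the complex the highest, and points between 0 and the dashed line change sign when the libraries are scaled on shared genes.

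The elongation factors held the largest share of all. All 5 detected genes had log2 ratios above 0 (median 0.68), as did 61.8% of all detected genes. Eef1a1, which delivers aminoacyl-tRNAs, was the highest member in both libraries with 8664 TPM in fibroblasts and 6489 TPM in macrophages (0.42). Its paralog Eef1a2, known from muscle and neurons, had 0.0468 TPM in fibroblasts and 0.339 TPM in macrophages. Eef2, which moves the ribosome along, had 1143 TPM in fibroblasts and 894 TPM in macrophages (0.35). The ratio of Eef1a1 to Eef2 was 7.58 in fibroblasts and 7.26 in macrophages, nearly the same.

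The exchange subunits that recharge eEF1A lay further toward fibroblasts than eEF1A did. Eef1b2 (chr1:63176825-63180486) had 1402 TPM in fibroblasts and 584 TPM in macrophages (1.26). Eef1g had 769 TPM in fibroblasts and 460.1 TPM in macrophages (0.74). Eef1d had 354 TPM in fibroblasts and 220.0 TPM in macrophages (0.68). The level of Eef1b2 was 0.162 of that of Eef1a1 in fibroblasts and 0.0900 of it in macrophages. Eef1a1 and Eef1g share 49.8% and 47.6% of their 31-base words with other genes, mostly pseudogenes, and the gene that shares most was given 1.09 TPM in fibroblasts and 1.20 TPM in macrophages for Eef1a1 and was listed at 0 in both for Eef1g.

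The widest difference among the 105 members at 5 TPM or more was in a regulator of elongation. Eef2k (chr7:120842831-120907450), the calcium- and nutrient-regulated kinase that inactivates eEF2, had 44.8 TPM in fibroblasts and 8.58 TPM in macrophages, for a log2 ratio of 2.26 and 5.22-fold in plain TPM. It stood at 0.0392 of the level of its substrate Eef2 in fibroblasts and at 0.00959 of it in macrophages. Of its 31-base words 0.565% are shared with other genes. With 5 TPM added in place of 1 the log2 ratio was 1.87, short of the 4-fold rule. The methyltransferases of the elongation factors differed less. Eef1akmt1 had 63.6 TPM in fibroblasts and 45.7 TPM in macrophages (0.47). Eef1akmt2, with 27.9 TPM in fibroblasts and 25 TPM in macrophages, and Eef2kmt, with 27.2 TPM in fibroblasts and 25.7 TPM in macrophages, were at 0.15 and 0.08 and go below 0 under the scaling. Eef1akmt3 was low, with 1.99 TPM in fibroblasts and 0.258 TPM in macrophages.

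Of the release factors, Etf1, which recognises stop codons, had 98.2 TPM in fibroblasts and 83.9 TPM in macrophages (0.23). Its GTPase partner Gspt1 had 158 TPM in fibroblasts and 92.3 TPM in macrophages (0.77). The poly(A)-binding proteins cover mRNA tails and bind eIF4G. Pabpc1, the main form, had 740.4 TPM in fibroblasts and 467 TPM in macrophages (0.66). Pabpc4 (chr4:123262351-123298925) had 135 TPM in fibroblasts and 45.5 TPM in macrophages (1.54), 2.96-fold in plain TPM. Pabpc1 exceeded Pabpc4 by 5.50 times in fibroblasts and by 10.3 times in macrophages. Pabpc4 shares 62.9% of its 31-base words with other genes, mostly with the gene model Gm10110, which had 0.137 TPM in fibroblasts and none in macrophages. Pabpc2 and Pabpc6 were listed at 0 in both libraries.

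**Figure D3:**
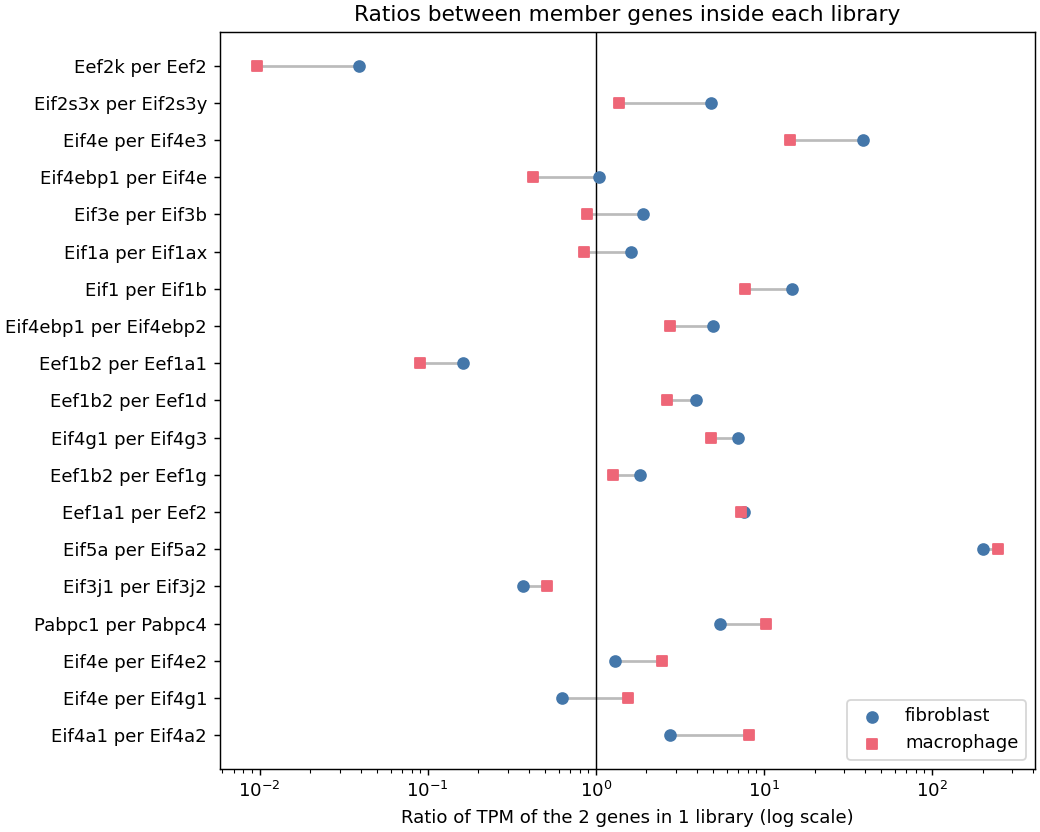
Ratio of the TPM of 2 genes inside the same library, on a log scale, fibroblast as circles and macrophage as squares, with a line at equal levels. Ratios inside a library do not depend on how the libraries are scaled, and among those drawn they differ most for Eef2k per Eef2, Eif2s3x per Eif2s3y and Eif4a1 per Eif4a2, while Eef1a1 per Eef2 is nearly equal.

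The cytosolic synthetases lay toward fibroblasts as a group. Their median log2 ratio was 0.71, with 18 of 20 genes above 0, or 17 of 20 under the scaling, where Dars goes from 0.14 to -0.04. Among all genes with at least 5 TPM in both libraries the median was 0.18, and 60.5% lay above 0 as deposited. The sum of the 20 was 2124.5 TPM in fibroblasts, 0.213% of the library, and 1359 TPM in macrophages, 0.136% of it. All 20 had at least 5 TPM in both libraries, so the shares beside them are those of the 8363 such genes. At 2-fold, 2 of 20 were higher in fibroblasts, 10% against 12.2%, which is near the background. None was higher in macrophages, against 9.97%. Gars (chr6:55038007-55079500), whose gene makes the glycyl-tRNA synthetase of both compartments, had 195 TPM in fibroblasts and 78.3 TPM in macrophages (1.30). Yars (chr4:129189760-129219607), for tyrosine, had 78.3 TPM in fibroblasts and 33.4 TPM in macrophages (1.20). Just under 2-fold came Cars, for cysteine, at 0.96, Tars, for threonine, at 0.95 and Lars, for leucine, at 0.94.

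The highest of the cytosolic synthetases were Nars, for asparagine, with 272 TPM in fibroblasts and 145 TPM in macrophages (0.91), and Sars, for serine, with 236 TPM in fibroblasts and 171 TPM in macrophages (0.46). The exceptions were the 2 subunits of the phenylalanine enzyme, which form 1 complex. Farsa had 48.2 TPM in fibroblasts and 54.1 TPM in macrophages (-0.16). Farsb had 55.7 TPM in fibroblasts and 60.6 TPM in macrophages (-0.12). The subunits were close to each other in level and in log2 ratio.

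Some synthetases sit in a large multisynthetase complex in animal cells. The 9 members of it, including the scaffold Eef1e1, ran from 0.14 (Dars) to 0.94 (Lars), with a median of 0.45. Under the scaling 8 of 9 stayed above 0, with Dars the exception, against 54.7% of all detected genes. Rars, for arginine, was its highest member with 135 TPM in fibroblasts and 112 TPM in macrophages (0.27), followed by Qars, for glutamine, with 123 TPM in fibroblasts and 90.3 TPM in macrophages (0.45), and Kars, for lysine, with 104 TPM in fibroblasts and 76.3 TPM in macrophages (0.45). Eprs, which joins the enzymes for glutamate and proline, had 82.1 TPM in fibroblasts and 43.4 TPM in macrophages (0.91). The 12 cytosolic synthetase genes outside the complex had a median of 0.75. By enzyme class the medians were 0.67 over 9 genes of class I and 0.60 over 10 genes of class II, close to each other.

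Among the cytosolic synthetases with a promoter window, the 5 with TGATGNAA, whose sequences are given above, had log2 ratios from 0.64 (Iars) to 1.30 (Gars) with a median of 0.95. The 8 without it, Dars, Eprs, Farsa, Farsb, Kars, Mars, Qars and Sars, ran from -0.16 to 0.91 with a median of 0.45. The ranges overlap, from 0.64 to 0.91, and 7 further genes had no window in the table (median 0.74). The element was chosen with the direction of these genes known, and whether it bears on their ratios was not tested. The E-box CACGTG, a site known for MYC and related factors, which reads the same on both strands, stood in 18 of the 81 member genes, 22.2%, against 8.09% of all genes in the table and 12.1% of those at 5 TPM or more. A tract of C followed by at least 4 pyrimidines beginning within 5 bases of the start, resembling the 5′ oligopyrimidine tract of many translation genes, stood in 22 of 81, 27.2%, against 21.2% of all genes in the table and 23.8% of those at 5 TPM or more.

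The mitochondrial synthetases were low and differed little. Without Lars2 the 16 genes ran from 2.40 to 41.1 TPM in fibroblasts and from 1.58 to 30.9 TPM in macrophages, with sums of 239.5 TPM in fibroblasts and 209.8 TPM in macrophages, and their median log2 ratio was 0.24. Vars2, for valine, was the one of them past 2-fold, with 15.4 TPM in fibroblasts and 7.13 TPM in macrophages, for a log2 ratio of 1.02 that comes to 0.85 under the scaling. Iars2, for isoleucine, had 41.1 TPM in fibroblasts and 26.9 TPM in macrophages (0.60). Tars2 had 26.9 TPM in fibroblasts and 30.9 TPM in macrophages (-0.19). Fars2 was the lowest of the 16 in log2 ratio, with 9.21 TPM in fibroblasts and 13.0 TPM in macrophages (-0.46), on the same side as the cytosolic phenylalanine subunits.

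For 15 pairs of a cytosolic and a mitochondrial enzyme of the same amino acid, Lars2 left out, the cytosolic gene was the higher in all 15 in fibroblasts and in all 15 in macrophages, with a median ratio of 6.79 in fibroblasts and 6.12 in macrophages. Eprs stands in 2 of these pairs. The cytosolic gene lay further toward fibroblasts than its mitochondrial partner in 13 of these 15 pairs, with a median difference in log2 ratio of 0.54 over the pairs. Valine and tryptophan were the exceptions, with log2 ratios of 0.67 for Vars and 1.02 for Vars2 and of 0.20 for Wars and 0.68 for Wars2.

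Lars2 (chr9:123366927-123462666), for mitochondrial leucine, had 2568 TPM in fibroblasts and 6453 TPM in macrophages (-1.33). It ranked 2 among the 114 genes in each library, where the next mitochondrial synthetase reached 41.1 TPM in fibroblasts and 30.9 TPM in macrophages. Of its 31-base words 0.869% are shared with other annotated genes. Whether RNA of another origin was assigned to it was not tested, so its value is uncertain and is left out of the sums and pairs above where that is said.

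**Figure D4:**
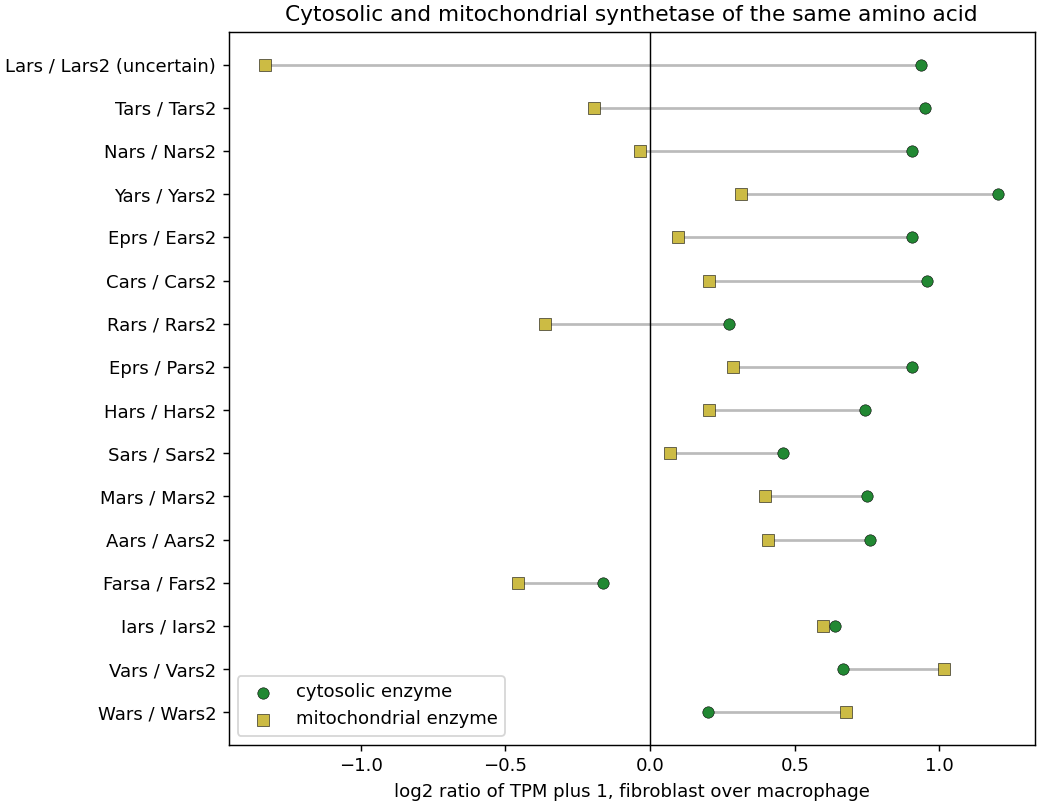
Log2 ratio of TPM plus 1, fibroblast over macrophage, of the cytosolic enzyme (circles) and the mitochondrial enzyme (squares) of the same amino acid, 1 pair per line. The circle lies to the right of the square in 13 of the 15 pairs without Lars2, the exceptions being Vars and Wars, and the value of Lars2 is uncertain.

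Genes that act on or beside the members were described from 6 lists, written by hand with earlier results of these data known. The integrated stress response list holds ATF4, genes under its control and regulators of eIF2 phosphorylation. Of its 19 genes 15 lay above 0 as deposited and 12 under the scaling, with a median log2 ratio of 1.15. Among all detected genes 61.8% lay above 0 as deposited and 54.7% under the scaling. Of the 18 with at least 5 TPM in either library, 10 passed 2-fold toward fibroblasts, 55.6% against 23.6% of all genes. Toward macrophages 1 passed, 5.56% against 15.2%. Those 10 included the serine synthesis genes Phgdh with 358 TPM in fibroblasts and 33.4 TPM in macrophages (3.38), Psat1 with 191 TPM in fibroblasts and 35.9 TPM in macrophages (2.38) and the mitochondrial enzyme Shmt2 with 101 TPM in fibroblasts and 43.9 TPM in macrophages (1.18). The asparagine synthetase gene Asns had 104 TPM in fibroblasts and 39.3 TPM in macrophages (1.38). Impact, which codes for a known inhibitor of GCN2 activation, had 75.2 TPM in fibroblasts and 15.6 TPM in macrophages (2.20).

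The other 5 of the 10 have varied roles. Vldlr, a lipoprotein receptor, had 15.1 TPM in fibroblasts and 0.148 TPM in macrophages (3.81), and Ddit4, an inhibitor of mTOR complex 1, had 38 TPM in fibroblasts and 4.95 TPM in macrophages (2.71). Chac1, which degrades glutathione, had 20.6 TPM in fibroblasts and 3.46 TPM in macrophages (2.28). Nupr1, a stress-induced nuclear protein, had 123 TPM in fibroblasts and 30.5 TPM in macrophages (1.98). Sesn2, a leucine sensor of the mTOR pathway, had 35.8 TPM in fibroblasts and 15.6 TPM in macrophages (1.15, and 0.97 under the scaling).

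The list was not of 1 direction. Slc3a2, the heavy chain of amino acid exchangers, had 182 TPM in fibroblasts and 492 TPM in macrophages (-1.43). Atf4 itself had 268 TPM in fibroblasts and 236 TPM in macrophages, for a log2 ratio of 0.18 that is about 0 under the scaling. Its targets Ddit3, for the factor CHOP, and Trib3 lay toward macrophages. Ddit3 had 94.5 TPM in fibroblasts and 133 TPM in macrophages (-0.49), and Trib3 had 18.3 TPM in fibroblasts and 21.3 TPM in macrophages (-0.21). ATF4 is controlled largely at translation, which these RNA levels do not measure.

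Of 15 regulators of cap-dependent translation with at least 5 TPM in either library, 3 passed 2-fold toward each cell, 20% each way against 23.6% of all genes toward fibroblasts and 15.2% toward macrophages, which is near the background. Toward fibroblasts were Pdcd4, an inhibitor of the eIF4A helicase, with 12.8 TPM in fibroblasts and 3.38 TPM in macrophages (1.66), Rictor, a subunit of mTOR complex 2, with 16.2 TPM in fibroblasts and 5.15 TPM in macrophages (1.48), and Paip1, a partner of the poly(A)-binding protein, with 96.5 TPM in fibroblasts and 43.9 TPM in macrophages (1.12, and 0.94 under the scaling). Toward macrophages were the kinases of eIF4E and Rptor, a subunit of mTOR complex 1. The kinase gene Mknk2 had 42.8 TPM in fibroblasts and 128 TPM in macrophages (-1.56), and Mknk1 had 22.1 TPM in fibroblasts and 63.1 TPM in macrophages (-1.48). Rptor had 13.4 TPM in fibroblasts and 29.8 TPM in macrophages (-1.09, and -0.92 with 5 TPM added in place of 1). Both kinase genes lay on the same side as Eif4e (-0.39). Of the binding proteins Eif4ebp1 lay on the other side (0.90), Eif4ebp2 was near 0 (0.06), and Eif4ebp3, low in both libraries, was at -0.30. Whether these genes change together was not tested. Paip2, an inhibitor of the poly(A)-binding protein, was the highest of the list by mean level, with 112 TPM in fibroblasts and 65.7 TPM in macrophages (0.76). Mtor was less apart, with 16.8 TPM in fibroblasts and 12.7 TPM in macrophages (0.37).

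**Figure D5:**
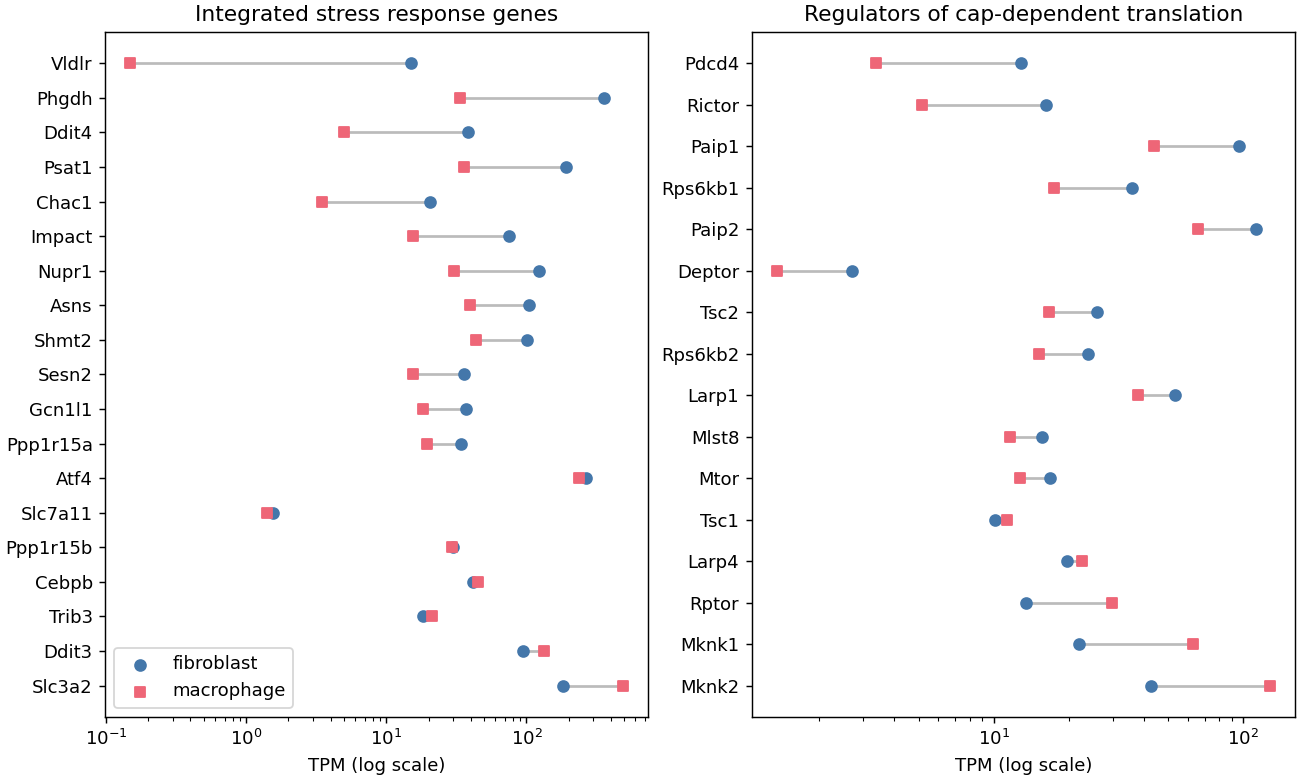
TPM on a log scale of the genes of the integrated stress response (left) and of the regulators of cap-dependent translation (right), fibroblast as circles and macrophage as squares, ordered by log2 ratio. Vldlr, Phgdh and Ddit4 lie furthest toward fibroblasts on the left, with Slc3a2 furthest toward macrophages, and on the right Pdcd4 and Rictor lie toward fibroblasts and Mknk1 and Mknk2 toward macrophages, while the order of the Atf4 points turns under scaling.

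Shares past 2-fold in the other 4 lists, among genes with at least 5 TPM in either library, ran from 0 to 11.1% each way. Of all such genes 23.6% passed toward fibroblasts and 15.2% toward macrophages. With at least 5 TPM in both libraries 12.2% and 9.97% of genes passed, so the larger list shares are near the background. Of 11 recycling, rescue and reinitiation factors 10 lay above 0 as deposited and 8 under the scaling, against 61.8% and 54.7% of all detected genes. Pelo, which rescues stalled ribosomes, passed 2-fold with 27.1 TPM in fibroblasts and 12.5 TPM in macrophages (1.06, and 0.89 under the scaling), and Ddx3x, an RNA helicase of initiation, was the highest with 150.5 TPM in fibroblasts and 112 TPM in macrophages. Of 9 scaffold and related proteins of the synthetases, Aimp2, a scaffold of the multisynthetase complex, had 81.6 TPM in fibroblasts and 34.0 TPM in macrophages (1.24), and its partner Aimp1 99.5 TPM in fibroblasts and 65.2 TPM in macrophages (0.60). Gatb, a subunit of the enzyme that makes glutaminyl-tRNA in mitochondria, had 6.51 TPM in fibroblasts and 16.6 TPM in macrophages (-1.23). With 5 TPM added in place of 1, Gatb came to -0.91, under 2-fold. Its partners Qrsl1 and Gatc were at -0.61 and -0.52, so all 3 subunits lay toward macrophages. Of 10 mitochondrial translation factors 4 lay above 0, against 61.8% of all detected genes. Mrrf, the mitochondrial ribosome recycling factor, was the one past 2-fold, with 21.2 TPM in fibroblasts and 7.43 TPM in macrophages (1.40), and the elongation factor Tufm was the highest with 90.1 TPM in fibroblasts and 74.2 TPM in macrophages. Of 9 enzymes that make the hypusine of eIF5A and the diphthamide of eEF2, none passed 2-fold, the median was -0.02, and Dohh, with 70.3 TPM in fibroblasts and 56.0 TPM in macrophages, was the highest by mean level.

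Of the genes matched by letters, Ptprs, a receptor tyrosine phosphatase, had 52.4 TPM in fibroblasts and 18.2 TPM in macrophages (1.47), and is 1 of the 10 members past 2-fold toward fibroblasts. Coprs, a cofactor of an arginine methyltransferase, had 36.6 TPM in fibroblasts and 28.9 TPM in macrophages (0.33). Csprs was listed at 0 in fibroblasts and had 1.87 TPM in macrophages.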

How the data were processed

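Poly(A) RNA of 1 fibroblast and 1 macrophage culture was sequenced in pairs of 76 bp from stranded TruSeq libraries, per the labels' protocols. The submitters' processing notes name kallisto 0.43.1 and the build GRCm38. No source used here names the transcript set or how transcripts were joined into genes. The deposited table gives 1 value per gene and library, taken as TPM because each column sums to about 1000000 and values need not be whole. Read depth cannot be had from TPM and is unknown.

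Rows of a symbol were added, giving 34295 genes from 34456 rows. Log2 ratios used TPM plus 1. Size rules of 4-fold and 2-fold with a minimum of 5 TPM were applied to all genes, and were tested on simulated data. Roles, paralog pairs, pathway lists, markers and motifs were listed by hand, and the members and lists were chosen with earlier results of these data known. Full values were given for every member past 2-fold at 5 TPM or more, the 3 highest genes of each role, all kinases, binding proteins, elongation, termination and poly(A)-binding genes, paralog pairs and Lars2, and, from lists outside the name rule, for genes past 2-fold and the highest gene. Other members, and pairs such as Eif4ebp1 and Eif4e, Eef2k and Eef2, Eef1b2 and Eef1a1 or Eif3e and Eif3b, were named after their values were seen. Another pair of a cytosolic and a mitochondrial synthetase is not reported here. Gene positions came from GENCODE on GRCm38, which held 113 of the 114 symbols, and 31-base words shared between genes were counted in its transcripts. Promoter sequences are RefSeq's, build GRCm38.p6. Alternatives were another added constant, other minimums, scaling by the median ratio of shared genes, rescaling without the mitochondrial and highest genes, and other member lists. Python 3.11.15, pandas 2.3.3 and numpy 2.4.6 were used.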

Additional observations from a re-analysis of the deposited data

How the results depend on the processing

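The count of members past 4-fold toward fibroblasts, 1 as reported, was 0 with 5 TPM added and 0 without the kinases, binding proteins and modifiers, since Eef2k is a modifier. It was 0 toward macrophages under every alternative run. The median log2 ratio of the members, 0.39, was 0.22 with scaling by the median ratio of shared genes and 0.27 with rescaling without 82 mitochondrial and highest genes. Counts past 2-fold ran from 8 to 11 toward fibroblasts and from 2 to 4 toward macrophages, within 1.5 times of the reported 10 and 3. The lists without Coprs, Csprs and Ptprs and without Lars2 were added after seeing the data. Of 105 members, scaling took 2 under 2-fold (Eif2b3 and Vars2), put 1 past it (Eif2s3y) and turned the sign of 9, all near 0. Adding 5 TPM took Vars2 under 2-fold (0.75). No alternative could leave out a library, and no paired analysis was possible because each cell type has 1 library. Sex, pooled animals, culture and library preparation cannot be told apart from cell type.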
